A study of Mus musculus with 12 samples.

Results

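Transcripts known from macrophages and from the MHC class II pathway were followed through bulk RNA-seq of mouse OT-I T cells in 12 libraries. The 10 genes Lyz2, C1qa, C1qb, C1qc, Apoe, Cd74, H2-Aa, H2-Ab1, H2-Eb1 and Ctss were taken by symbol from 55401 gene identifiers, because they belong to these programmes. They were chosen with earlier results of these data known, so their counts of calls are a description and not an independent check. Day 14 libraries (n = 3) and day 4 libraries (n = 3) held CD44+ OT-I cells, taken by flow sorting from B78ChOVA tumours in C57Bl6/J hosts, 14 or 4 days after transfer of OT-I cells. Effector libraries (n = 3) came from OT-I cells stimulated with antigen in culture for 5 days, and naive libraries (n = 3, labelled day 0) from lymph node OT-I cells of OT-I mice without tumours. All 4 groups carry the OT-I genotype, a transgenic T cell receptor for an ovalbumin peptide, and the labels give no treatment. The B78ChOVA tumours are melanomas. The hosts kept their own macrophages, dendritic cells and B cells, and the source of the antigen used in culture is not given in the labels. The labels do not say whether replicates came from separate animals or cultures, so p-values measure only the spread between these libraries.

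Macrophages secrete lysozyme from Lyz2, and they make the complement component C1q from 3 chains encoded by C1qa, C1qb and C1qc, which lie next to each other. They are also a main source of apolipoprotein E outside the liver, although other cells, melanoma cells among them, make it too. MHC class II molecules present peptides to CD4 T cells. Their alpha and beta chains (H2-Aa with H2-Ab1 for I-A, and H2-Eb1 for I-E) assemble on the invariant chain Cd74, which cathepsin S (Ctss) then trims away. The transactivator CIITA switches the chain genes and Cd74 on together in B cells, dendritic cells and macrophages, by docking on the RFX, NF-Y and CREB proteins that hold the X and Y boxes of their promoters. Mouse CD8 T cells are known for little or no class II transcription, unlike activated human T cells. C57BL/6 mice carry a defective I-E alpha gene, and the H2-Ea-ps gene had 0 counts in all 12 libraries.

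The class II promoters are shown because a common pair of boxes is what ties these genes together. The start windows in the RefSeq promoter table (GRCm38.p6, 250 bases before to 50 after each start) hold 7 of the 10 members; C1qa, Cd74 and H2-Ab1 were not matched there. The letters GCAAC, from the X box, stood on either strand in 35.2% of the 32851 windows, and the letters GATTGG, the Y box with its reversed CCAAT core, in 16.1%. Both on 1 strand with 20 to 30 bases between them stood in 67 windows, or 0.204%. Of the members, H2-Aa and H2-Eb1 held this pair, and of 7 matched genes in a list of 10 further class II pathway genes, H2-Oa, H2-Ob and H2-Eb2 held it. A match is a description of letters and shows no protein bound there. The boxes are in capitals, on the strand of each gene:
H2-Aa, chr17:34287859-34287912, minus strand: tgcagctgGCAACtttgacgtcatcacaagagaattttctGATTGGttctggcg
H2-Eb1, chr17:34305768-34305820, plus strand: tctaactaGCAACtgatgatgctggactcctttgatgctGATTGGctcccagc
H2-Oa, chr17:34092295-34092348, plus strand: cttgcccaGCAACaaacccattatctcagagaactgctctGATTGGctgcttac
H2-Ob, chr17:34238810-34238860, plus strand: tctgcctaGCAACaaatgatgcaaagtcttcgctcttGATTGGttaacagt
H2-Eb2, chr17:34325535-34325587, plus strand: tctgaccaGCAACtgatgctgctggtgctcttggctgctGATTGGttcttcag
The Y box of H2-Aa ended 43 bases before the start and that of H2-Eb1 54 bases before it. These genes share a pair of boxes but not a course in these bulk libraries, as the counts of H2-Ob below show. Whether their RNA came from the same cells was not tested.

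Gene counts per library ran from 11937053 to 17094006. All 10 genes of the T cell list (Cd3e, Cd3d, Cd3g, Cd8a, Cd8b1 and others) were detected in every library, with a summed level of 4003 to 4229 CPM at day 14, 3051 to 3543 CPM at day 4, 5470 to 5945 CPM in effector and 4581 to 5161 CPM in naive libraries. CPM are gene counts relative to library size, scaled between libraries with TMM factors. The 10 members together made up 0.0291% to 0.0321% of gene counts at day 14, 0.0240% to 0.0298% at day 4, 0.00917% to 0.0114% in effector and 0.00925% to 0.0141% in naive libraries. All 10 passed the filter on low counts. In the T cell list 4 genes were called higher and none lower at day 14 against day 4, where 7.17% and 4.91% of tested genes were. At day 14 against naive cells 1 was higher and 4 lower, where 33.6% and 28.5% of tested genes were. Cd3g was the highest in both comparisons. Other T cell markers were lower at day 14 than in naive libraries. The mean of Cd8b1 was 380 against 893 CPM and that of Cd247 100 against 178 CPM. The mean of Lat was 122 against 204 CPM and that of Lck 394 against 556 CPM. On GRCm38, the C1q genes lie side by side on chromosome 4 (C1qb 136880129-136886187, C1qc 136889804-136893065 and C1qa 136895917-136898803) and the class II chain genes on chromosome 17 (H2-Ab1 34257689-34269419, H2-Aa 34282744-34287823 and H2-Eb1 34305867-34316674). Lyz2 lies on chromosome 10 (117277331-117282321), Apoe on 7 (19696109-19699188), Cd74 on 18 (60803848-60812652) and Ctss on 3 (95526786-95556403). No exon of another gene overlaps theirs in the GENCODE annotation except Mir5107 in Cd74. Lyz1 and H2-Eb2, near copies of Lyz2 and H2-Eb1, had 4 and 2 counts over the 3 day 14 libraries, but reads that map equally to both copies were not assigned to either.

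Most members were higher in both tumour groups than in effector cells, and fewer were called against naive cells, above all at day 4. A member or gene was called at a Benjamini-Hochberg adjusted p under 0.05 in edgeR's quasi-likelihood test. Between day 14 and day 4 none of the 10 was called, where 12.1% of tested genes were. At day 14 against effector cells 9 members were higher and 1, Ctss, was lower, where 32.6% of tested genes were higher and 28.4% lower. There 9 members lay wholly above and 1 wholly below the effector libraries, as did 35.4% and 31.1% of tested genes. At day 14 against naive cells 6 were higher, where 33.6% of tested genes were, and 7 lay wholly above, where 36.4% did. At day 4 against effector cells 9 were higher, where 32.7% of tested genes were, and 9 lay wholly above, where 35.7% did. At day 4 against naive cells 4 were higher, where 33.4% of tested genes were, a share close to that background, and 5 lay wholly above, where 36.1% did. In effector against naive cells 6 members were lower, where 10.4% of tested genes were, and 4 lay wholly below, where 18.2% did. The median log2 difference of the members was 4.93 and 4.35 at day 14 and day 4 against effector cells, 2.50 and 1.44 against naive cells, and -2.14 in effector against naive cells, while medians over all genes were between 0.01 and 0.06. Comparisons with the same control libraries are not independent of each other.

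The 3 C1q chains and Lyz2 were present at low levels in tumour libraries and also in naive ones, and were at or next to 0 in effector libraries. C1qa had 69, 54 and 64 counts in day 14 libraries 1 to 3, 26, 18 and 77 in day 4 libraries, 0 in each effector library, and 24, 26 and 1 in naive libraries. C1qb had 96, 48 and 100 counts at day 14, 43, 13 and 96 at day 4, 0 in each effector library, and 16, 9 and 6 in naive libraries. C1qc had 40, 24 and 50 counts at day 14, 16, 12 and 41 at day 4, 0 in each effector library, and 16, 23 and 8 in naive libraries. Day 4 replicate 3 was the highest of its group for all 3 chains, and naive replicate 3 the lowest of its own. Lyz2 had 126, 52 and 191 counts at day 14, 59, 38 and 370 at day 4, 1, 0 and 0 in effector, and 42, 42 and 22 in naive libraries. The day 4 library with 370 Lyz2 counts was again replicate 3, and the day 14 and day 4 libraries overlapped for all 4 genes. In a bulk library, fewer cells of a type and less RNA per cell cannot be told apart.

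**Figure D1:**
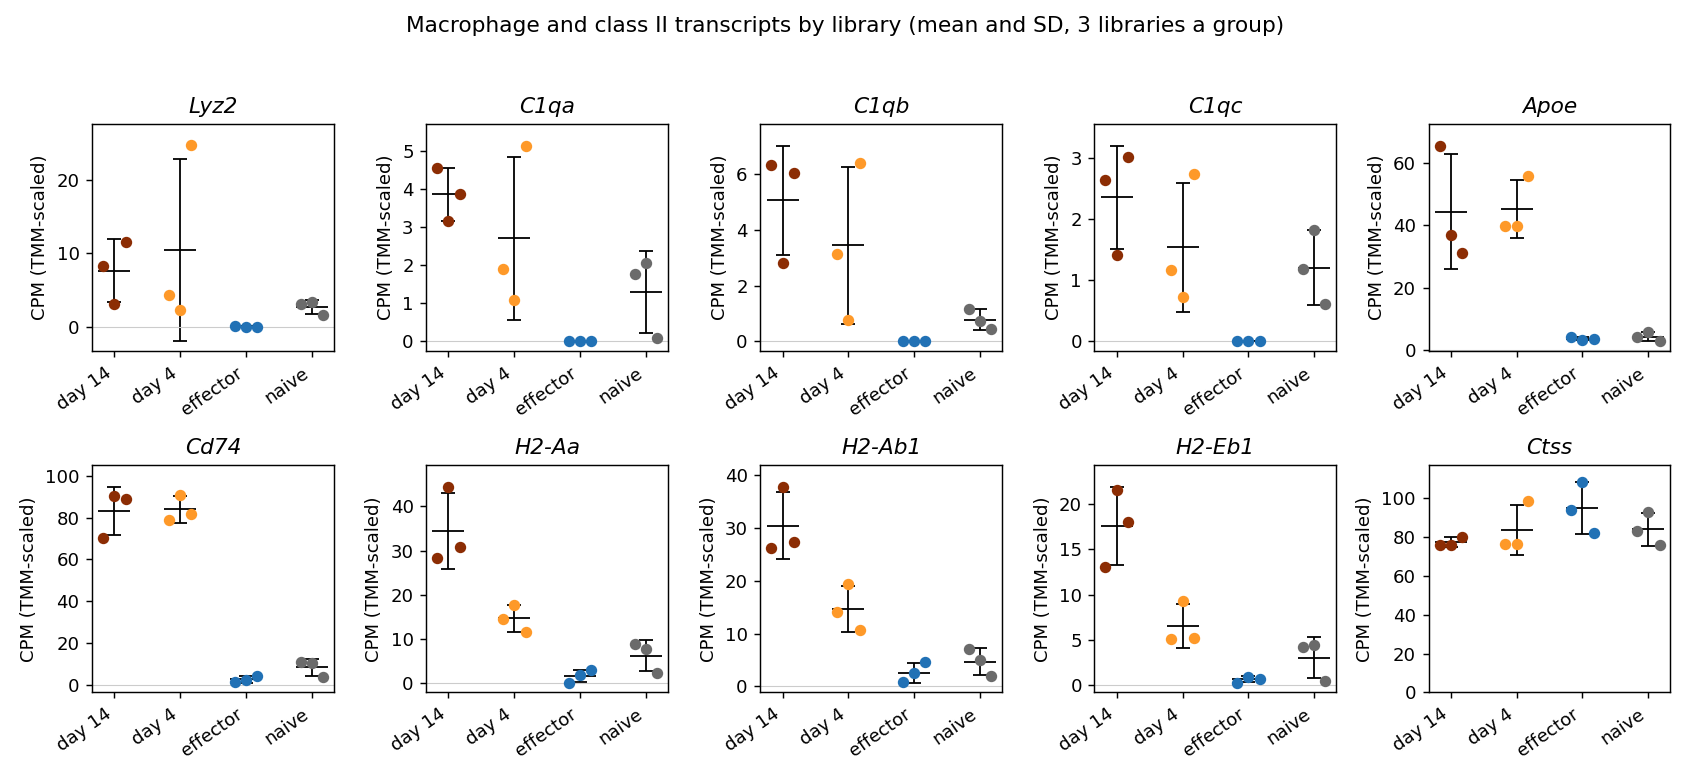
TMM-scaled CPM of each of the 10 genes (y axis, linear) by group (x axis), with 1 point per library, replicates 1 to 3 from left to right, and bars for the mean and SD of 3 libraries. Cd74 and Apoe were high in both tumour groups, the 3 class II chains were higher in every day 14 library than in any day 4 library, and Ctss lay between 75.7 and 108.4 CPM in all 12 libraries.

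Between tumour and effector cells, the counts give only a lower bound for the fold of the C1q chains. Over the group, a count of 0 allows up to 3 counts, and set against that floor C1qa was at least 49.3-fold higher at day 14 and at least 34.3-fold higher at day 4 than in effector cells. C1qb was at least 64.3-fold higher at day 14 and at least 43.1-fold higher at day 4. For Lyz2, with 1 count over the effector libraries, the ratio was 292 at day 14 (95% interval 52.0 to 11548, counting error only) and 397 at day 4 (70.9 to 15712). Day 4 replicate 3 held 77 of the 121 C1qa counts, 96 of the 152 C1qb counts and 370 of the 467 Lyz2 counts at day 4, and without it all 4 genes were still called higher at day 4 than in effector cells. Naive cells also stood above effector cells: the effector level was at least 16.7-fold lower for C1qa, at least 10.2-fold lower for C1qb and at least 15.4-fold lower for C1qc. All 3 chains were called lower in effector than in naive cells by edgeR's quasi-likelihood test (Benjamini-Hochberg adjusted p = 0.00976, 0.00968 and 0.000967) and were still called after leaving out any 1 library.

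Against naive cells, the macrophage genes gave fewer calls. C1qb was 6.37-fold higher at day 14 (log2 difference 2.67, SE 0.68, edgeR adjusted p = 0.00378) and 4.32-fold higher at day 4 (2.11, SE 0.68, adjusted p = 0.0154). The day 4 call for C1qb was lost without day 4 replicate 3 (log2 1.30, adjusted p = 0.108), naive replicate 2 (adjusted p = 0.0507) or naive replicate 3 (adjusted p = 0.0607), within a range of 0.000125 to 0.108 over its alternatives. C1qa and C1qc were not called in tumour groups against naive cells, with day 14 differences of 1.56 (adjusted p = 0.0947) and 0.96 (adjusted p = 0.177) on the log2 scale. C1qa was called there when every gene was kept (adjusted p = 0.00746, alternatives 0.00746 to 0.186). The day 4 difference of C1qc was 0.35 and became -0.35 without day 4 replicate 3. Lyz2 was not called at day 14 (1.49, SE 0.83, adjusted p = 0.144) or day 4 (1.94, SE 0.83, adjusted p = 0.0653). Without day 4 replicate 3 its day 14 difference was called (adjusted p = 0.0125, alternatives 0.0125 to 0.357), and without day 4 replicate 1 or 2 its day 4 difference was (adjusted p = 0.0430 and 0.0114, alternatives 0.00477 to 0.678).

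The ratios among the macrophage genes also varied between libraries. C1qa made up 33.7%, 42.9% and 29.9% of the summed C1q counts at day 14 and 30.6%, 41.9% and 36.0% at day 4. In naive libraries it made up 42.9%, 44.8% and 6.67%, the last of only 15 C1q counts. Lyz2 gave 0.615, 0.413 and 0.893 counts per C1q count at day 14, 0.694, 0.884 and 1.73 at day 4, and 0.750, 0.724 and 1.47 in naive libraries. The day 4 library with the most C1q therefore also carried the most Lyz2 per C1q of the tumour libraries.

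Macrophage and monocyte markers were counted beside these genes. In the list of 22 such markers, 18 were tested. At day 14 against naive cells 6 were called higher and 2 lower, shares no larger than the 33.6% higher and 28.5% lower among all 16426 genes tested, with a median log2 difference of 1.34 against 0.04 over all of these. Ms4a7 had 64 counts over the day 14 libraries and 1 over the naive libraries, a ratio of 51.5 (95% counting interval 8.92 to 2065), and Sirpa was higher by 2.88 on the log2 scale (edgeR adjusted p = 0.000517). Both Ms4a7 and Sirpa were near or at 0 in effector libraries. The haemoglobin scavenger receptor Cd163 was lower by 4.66 (adjusted p = 0.00582), with 0, 5 and 1 counts at day 14 and 62, 47 and 20 in naive libraries. At day 4 against naive cells 5 were called higher and 1 lower, where 33.4% and 28.8% of all tested genes were, and in effector against naive cells none was higher and 8 were lower, where 14.6% and 10.4% of all tested genes were. The part of macrophage RNA in the differences of the members was not tested.

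The summed level of that list did not follow the C1q chains, because of 1 gene. The sum was 53.6 to 84.0 CPM at day 14, 48.6 to 98.0 at day 4, 91.4 to 104.4 in effector and 64.9 to 122.3 in naive libraries. Ms4a6c gave 917 to 1336 counts in effector and 615 to 1169 in naive libraries, against 173 to 200 at day 14 and 134 to 245 at day 4. The other 21 genes, a cut of the list made after their values were seen, summed to 41.9 to 72.6 CPM at day 14, 38.7 to 81.7 at day 4, 7.26 to 12.6 in effector and 17.9 to 36.0 in naive libraries. Of the 22 markers, 0 to 3 had no count at day 14, 1 to 2 at day 4, 10 to 13 in effector and 4 to 6 in naive libraries. Cd14, Spi1, Ms4a7 and Fcgr1, named after their values were seen, had 0 counts in all 3 effector libraries.

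Day 4 replicate 3 stood apart in some of these markers, but not in Sirpa, at 6.45, 7.02 and 6.47 CPM in day 4 replicates 1 to 3. Day 4 replicate 3 had 43 counts of Cd14, the endotoxin co-receptor, where day 4 replicates 1 and 2 had 2 and 1. The mannose receptor Mrc1 had 114 counts there and 10 and 11 in those, and Fcgr1, the high-affinity IgG receptor, had 20 and then 1 and 0. These 3 genes were named after their values were seen. Its Lyz2 level of 24.7 CPM compares with 4.32 and 2.28 CPM in the other two day 4 libraries.

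**Figure D2:**
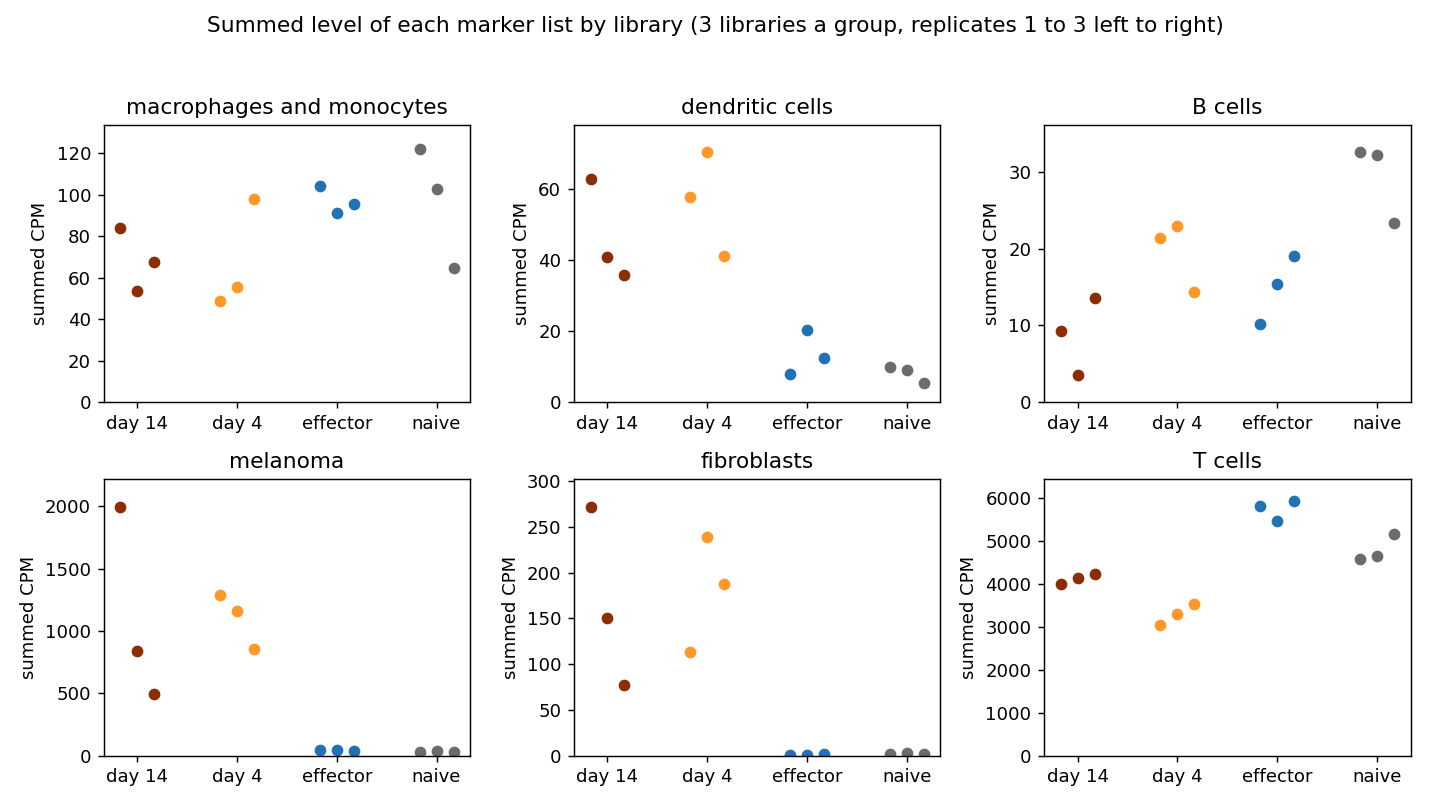
Summed CPM (y axis, from 0) of 6 marker lists in each library, by group (x axis), with replicates 1 to 3 of a group from left to right. The melanoma list reached 498 to 1995 CPM at day 14 and 855 to 1285 CPM at day 4, against 41.3 to 44.0 CPM in effector and 26.8 to 34.0 CPM in naive libraries.

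Apoe was about equally high in both tumour groups and low outside tumours. It had 988, 626 and 514 counts at day 14, 540, 664 and 837 at day 4, 60, 38 and 44 in effector, and 58, 72 and 36 in naive libraries. Every tumour library lay above every library from outside tumours. Against effector cells it was higher by 3.59 on the log2 scale at day 14 (SE 0.32, edgeR adjusted p = 4.65e-07) and by 3.62 at day 4 (adjusted p = 3.91e-07), or 12.3-fold. Against naive cells it was 10.4-fold higher at day 14 and 10.6-fold higher at day 4 (adjusted p = 6.88e-07 and 6.14e-07). Per C1q count, Apoe gave 4.82, 4.97 and 2.40 counts at day 14 and 6.35, 15.4 and 3.91 at day 4, so the 2 measures did not keep 1 ratio. Effector libraries had 38 to 60 Apoe counts with 0 counts of all 3 C1q chains.

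Of the marker lists other than that of T cells, the melanoma list had the highest summed level in every tumour library. All 8 melanoma markers were called higher at day 14 and at day 4 than in naive or effector cells, where 32.6% to 33.6% of all tested genes were. Dct, a melanin synthesis enzyme and the most abundant of them, had 18394, 8360 and 5248 counts at day 14, 10759, 11627 and 7169 at day 4, 8, 9 and 12 in effector, and 8, 27 and 8 in naive libraries. Tyrp1, another enzyme of that path, had 2665 counts over the day 14 and 2 over the naive libraries, a ratio of 1072 (95% counting interval 296 to 8855), while Pmel and Mitf had the lowest folds at 3.68 and 24.0. Day 14 replicate 1 was the highest of its group for both Apoe, at 65.1 CPM, and Dct, at 1213 CPM. Within day 4 the order was the other way. There replicate 3 had the most Apoe, at 55.8 CPM against 39.6 and 39.8, and the least Dct, at 478 CPM against 788 and 698. Over the 12 libraries, the 5 genes most like Apoe in log2 CPM, of 9193 compared, were Pgm1 (r = 0.990), Dct (0.989), Igfn1 (0.988), Lsm12 (0.988) and Ptgds (0.987). These correlations follow the split between tumour and other libraries that all of these genes share. The part of melanoma RNA in the Apoe difference was not tested.

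Genes of lipid carriage, in which Apoe acts, were called in both directions. Of 12 listed, 9 were tested, and at day 14 against naive cells 4 were higher and 2 lower, shares near the 33.6% and 28.5% among all tested genes. The endocytic receptor Lrp1 was higher by 2.95 on the log2 scale (edgeR adjusted p = 8.13e-05) and the lipid droplet protein Plin2 by 2.43 (adjusted p = 6.74e-05). The cholesterol exporters Abca1 and Abcg1 fell by 3.21 and 2.37 (adjusted p = 1.61e-05 and 3.31e-10). Apoc1, which lies beside Apoe, had 2 counts in day 4 replicate 1 and 0 in the other 11 libraries.

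Cd74 was higher in both tumour groups than in effector and naive cells. It had 1062, 1541 and 1469 counts at day 14, 1076, 1516 and 1227 at day 4, 14, 27 and 53 in effector, and 148, 129 and 46 in naive libraries. Tumour libraries did not overlap with effector or naive ones, and the tumour groups overlapped with each other. Against naive cells Cd74 was 10.1-fold higher at day 14 (log2 3.33, SE 0.41, edgeR adjusted p = 6.87e-05) and 10.2-fold higher at day 4 (3.35, SE 0.41, adjusted p = 6.59e-05). Against effector cells it was 33.8-fold higher at day 14 and 34.1-fold higher at day 4 (adjusted p = 9.44e-06 and 8.44e-06). Without effector replicate 3, its highest effector library, the log2 differences moved to 5.71 and 5.74, from 5.08 and 5.09.

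The 3 class II chains were higher at day 14 than in naive cells. H2-Aa had 429, 755 and 510 counts at day 14, 199, 294 and 174 at day 4, 1, 20 and 37 in effector, and 119, 96 and 29 in naive libraries. H2-Ab1 had 397, 641 and 452 counts at day 14, 192, 323 and 161 at day 4, 11, 29 and 59 in effector, and 95, 64 and 26 in naive libraries. H2-Eb1 had 197, 367 and 298 counts at day 14, 70, 155 and 78 at day 4, 4, 11 and 9 in effector, and 57, 56 and 6 in naive libraries. In all 3 genes the groups stood in the order day 14, day 4, and then naive and effector, where only the naive and effector libraries overlapped. At day 14 the folds against naive cells were 5.54 for H2-Aa, 6.45 for H2-Ab1 and 5.76 for H2-Eb1 (edgeR adjusted p = 0.00615, 0.000863 and 0.00168). At day 4 only H2-Ab1 was called, 3.13-fold higher (log2 1.65, SE 0.51, adjusted p = 0.0152). This call was lost without day 4 replicate 2 (adjusted p = 0.0513). It was also lost in a setting other than leaving out 1 library (alternatives 0.00247 to 0.0600). H2-Aa and H2-Eb1 at day 4 were 1.23 and 1.11 higher on the log2 scale (adjusted p = 0.107 and 0.101). H2-Aa was called when effector replicate 1 was left out (adjusted p = 0.0184, alternatives 0.0184 to 0.259). H2-Eb1 was called in more than 1 other setting, among them DESeq2 (adjusted p = 0.0439, alternatives 0.00313 to 0.323), but not with any 1 library left out.

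Against effector cells, the class II chains were called higher in both tumour groups. At day 14 the folds were 22.5 for H2-Aa, 11.7 for H2-Ab1 and 27.5 for H2-Eb1, and at day 4 they were 9.54, 5.67 and 10.3 (edgeR adjusted p between 5.21e-05 and 0.00300). Effector replicate 3 held 37, 59 and 9 counts of the 3 genes where effector replicate 1 held 1, 11 and 4. Without effector replicate 3, H2-Aa stood at 5.38 in place of 4.49 on the log2 scale at day 14 and at 4.16 in place of 3.25 at day 4. H2-Ab1 likewise stood at 4.28 in place of 3.55 at day 14 and at 3.25 in place of 2.50 at day 4.

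Between the tumour time points, none of the 10 members was called by edgeR, while 2 had an unadjusted p under 0.05 and 1 was called by DESeq2. Of all 16426 tested genes, 7.17% were called higher and 4.91% lower at day 14. The class II chains came nearest. Each was higher in all 3 day 14 libraries than in any day 4 library, a separation that 16.5% of all tested genes shared. H2-Eb1 differed by 1.42 on the log2 scale (SE 0.52, edgeR adjusted p = 0.107), H2-Aa by 1.24 (SE 0.58, adjusted p = 0.229) and H2-Ab1 by 1.04 (SE 0.47, adjusted p = 0.201). A fit on the 6 tumour libraries alone called all 3 (adjusted p = 0.00438, 0.00181 and 0.00862). H2-Eb1 was also called by DESeq2 (adjusted p = 0.0341), when every gene was kept (adjusted p = 0.000356) and without naive replicate 3 (adjusted p = 0.00659), and was at 0.291 at most over its alternatives. The ranges over the alternatives were 0.00181 to 0.543 for H2-Aa and 0.00862 to 0.442 for H2-Ab1. The median log2 difference of the 10 members was 0.54, against -0.00 over all genes tested.

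The other members differed little between the tumour time points. Cd74 was at -0.01 on the log2 scale (SE 0.36, edgeR adjusted p = 0.994), Apoe at -0.03 (SE 0.27, adjusted p = 0.979) and Ctss at -0.11 (SE 0.12, adjusted p = 0.648). C1qa, C1qb and C1qc were at 0.51, 0.56 and 0.61 (SE 0.72, 0.60 and 0.58). Lyz2 was at -0.45 (SE 0.78, adjusted p = 0.811) and at 1.22 without day 4 replicate 3, the library with 370 Lyz2 counts. The signs of the 3 differences nearest to 0 also turned with 1 library: Apoe was at 0.07, 0.16 and 0.16 without day 14 replicate 2, day 14 replicate 3 or day 4 replicate 3, Cd74 at 0.08 and 0.04 without day 14 replicate 1 or day 4 replicate 2, and Ctss at 0.02 without day 4 replicate 3.

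**Figure D3:**
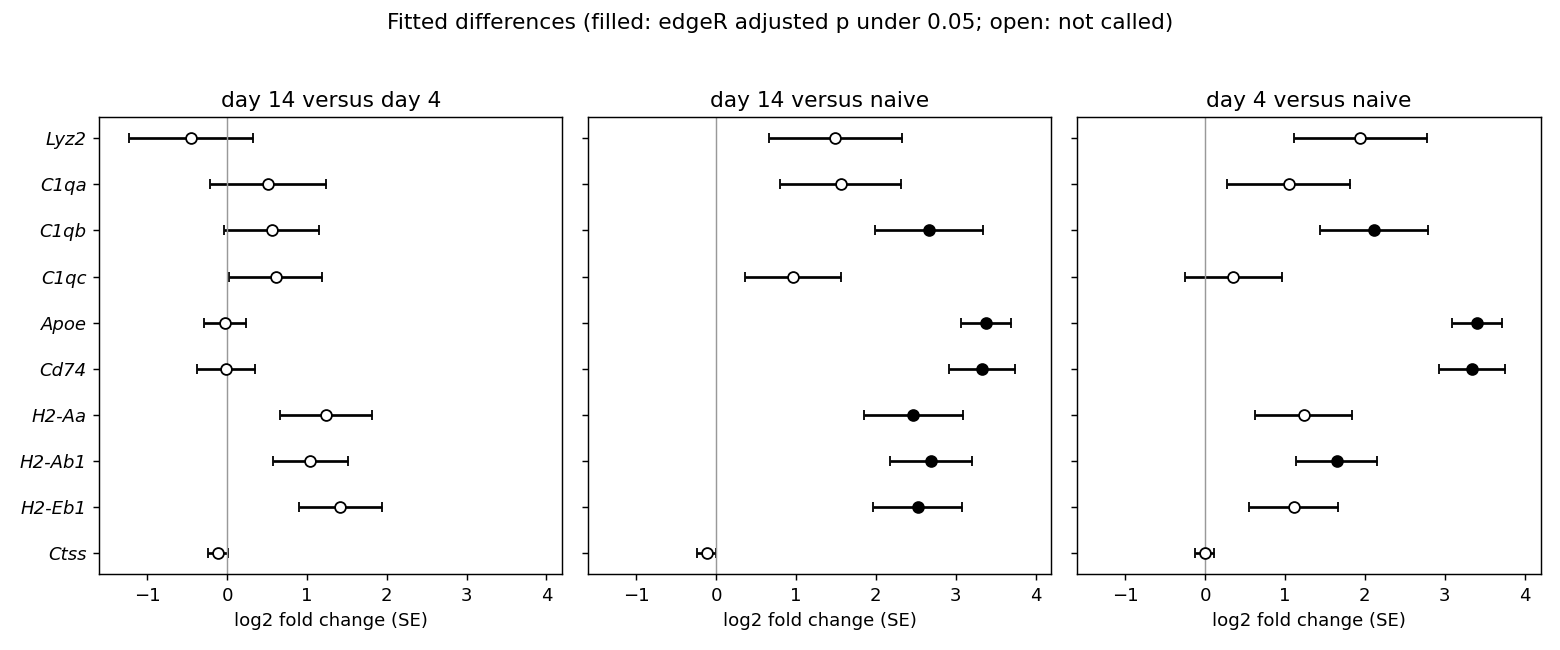
Fitted log2 fold changes (x axis) with their SE for each gene (y axis) between day 14 and day 4, day 14 and naive, and day 4 and naive cells; filled points were called by edgeR at an adjusted p under 0.05 and open points were not. No point is filled between day 14 and day 4, 6 are filled between day 14 and naive and 4 between day 4 and naive.

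Cd74 and the class II chains, genes under the same transactivator, did not keep 1 ratio across the groups. Cd74 made up 50.9% (95% Wilson interval 48.8 to 53.1), 46.6% (44.9 to 48.3) and 53.8% (52.0 to 55.7) of the summed Cd74, H2-Aa, H2-Ab1 and H2-Eb1 counts at day 14. It made up 70.0% (67.7 to 72.2), 66.3% (64.3 to 68.2) and 74.8% (72.7 to 76.9) at day 4. In effector libraries it was 46.7%, 31.0% and 33.5%, the first from 14 Cd74 counts, and in naive libraries 35.3%, 37.4% and 43.0%. All 3 day 4 libraries lay above all others. The mean share was 50.5% ± 3.62 at day 14 and 70.4% ± 4.29 at day 4 (SD, n = 3 each), a difference of -19.9 percentage points. An exact two-sided permutation test gave p = 0.1, the smallest that 3 against 3 libraries allow, and 0.15 after adjustment over the 6 pairs of groups; the share was chosen after its values were seen.

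**Figure D4:**
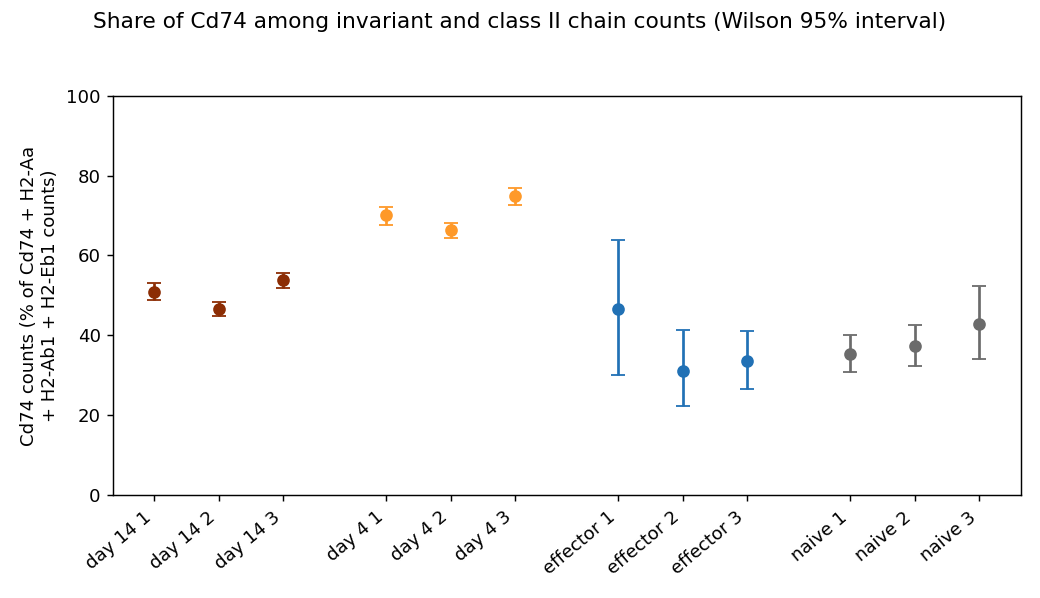
Cd74 counts as a percentage of the summed Cd74, H2-Aa, H2-Ab1 and H2-Eb1 counts (y axis, 0 to 100) in each library (x axis), with 95% Wilson intervals that cover counting error only. The day 4 libraries lie at 66.3% to 74.8%, the day 14 libraries at 46.6% to 53.8% and the naive libraries at 35.3% to 43.0%.

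The class II chains did not follow C1q within a tumour time point. The summed C1q level was 13.5, 7.40 and 12.9 CPM in day 14 libraries 1 to 3, and the summed class II chain level was 67.4, 103.5 and 76.2 CPM. At day 4 the C1q sum was 6.23, 2.58 and 14.3 CPM and the class II sum 33.8, 46.3 and 27.6 CPM. At each time point the library with the least C1q, replicate 2, had the most class II, and the one with the most C1q had the least class II, in 3 libraries each. Both replicate 2 libraries were also those with the most counts of the collagen gene Col3a1, 135 at day 14, where the others had 20 and 45, and 177 at day 4, where the others had 4 and 6. Without both, the log2 differences of H2-Aa, H2-Ab1 and H2-Eb1 between day 14 and day 4 were 1.18, 1.11 and 1.58. In the main fit they were 1.24, 1.04 and 1.42. None was called in either fit, and the smaller one has fewer libraries, so the lack of calls does not bear on these 2 libraries. In naive libraries both sums were lowest in replicate 3, with 56, 58 and 15 counts of C1q and 271, 216 and 61 counts of class II. Col3a1 was named after its values were seen, and its part in these results was not tested.

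**Figure D5:**
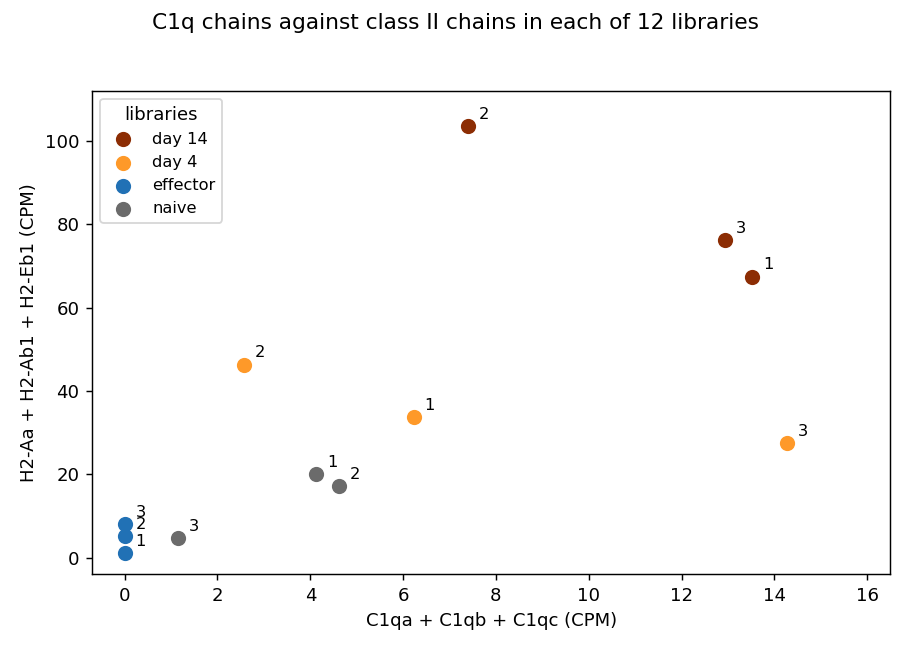
Summed CPM of C1qa, C1qb and C1qc (x axis) against summed CPM of H2-Aa, H2-Ab1 and H2-Eb1 (y axis) in each library, coloured by group and numbered by replicate. Effector libraries lie at 0 on the x axis with 1.15 to 8.11 CPM of class II, and day 4 replicate 3 has the most C1q, 14.3 CPM, but less class II than any other tumour library.

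Ctss differed from the other 9 members in its course. It had 1148, 1291 and 1325 counts at day 14, 1042, 1270 and 1473 at day 4, 1308, 1262 and 1061 in effector, and 1126, 1166 and 991 in naive libraries. Its mean level was 77.2 ± 2.52 CPM at day 14, 83.6 ± 12.7 at day 4, 94.8 ± 13.2 in effector and 83.9 ± 8.52 in naive libraries (SD, n = 3 each). Effector libraries, with no C1q counts and with 1 Lyz2 count in all, held 1061 to 1308 Ctss counts, while tumour libraries held 1042 to 1473. Ctss made up 84.0% to 93.5% of the counts of the 10 members in effector libraries and 66.2% to 84.6% in naive ones, against 23.9% to 26.6% at day 14 and 29.5% to 32.5% at day 4. Ctss was called lower at day 14 than in effector cells, by 0.30 on the log2 scale (SE 0.12, edgeR adjusted p = 0.0456). This call was kept only without day 4 replicate 3, effector replicate 3 or naive replicate 2, and was lost in the 9 other fits that left out 1 library, with either other scaling, with DESeq2 and with every gene kept (adjusted p 0.0276 to 0.207 over the alternatives). At day 4 against effector cells the difference was -0.18 (adjusted p = 0.210), and -0.31 without day 4 replicate 3, where it was called (adjusted p = 0.0392, alternatives 0.0392 to 0.712).

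Other lysosomal proteases and their inhibitors share compartments with cathepsin S. All 13 listed genes were tested, and at day 14 against naive cells 8 were higher and 1 lower, where 33.6% and 28.5% of all tested genes were. The cystatin gene Cst7, known from cytotoxic lymphocytes, was higher by 2.14 on the log2 scale and the asparaginyl protease Lgmn by 1.91 (edgeR adjusted p = 4.92e-08 and 0.00483), and the protective protein gene Ctsa was lower by 0.30 (adjusted p = 0.0122). Between day 14 and day 4, 5 were higher and 1 lower, where 7.17% and 4.91% of all tested genes were. Ctsd and Ctsc, which encode cathepsins D and C, were higher by 1.14 and 1.06 (adjusted p = 4.66e-05 and 0.000110), and Ctsz was lower by 0.56 (adjusted p = 0.0190).

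Of Cd74 and the 3 class II chains, 2 were called lower in effector than in naive cells, where 10.4% of all tested genes were. Cd74 was 3.35-fold lower (log2 -1.74, SE 0.49, edgeR adjusted p = 0.0288) and H2-Eb1 4.77-fold lower (-2.26, SE 0.70, adjusted p = 0.0331), and both groups' libraries overlapped. H2-Aa was at -2.02 and H2-Ab1 at -0.86 (adjusted p = 0.0755 and 0.310). Of the 8 tested genes in the class II presentation list, 2 were higher in effector cells, H2-Oa by 1.16 and H2-DMa by 0.64 on the log2 scale (adjusted p = 0.00129 and 0.0127), and 1, the ubiquitin ligase March1, was lower. Of all tested genes, 14.6% were higher and 10.4% lower there. Lyz2, with 1 effector count against 106 naive counts, was called lower (adjusted p = 0.0212), a ratio of 104 (95% counting interval 18.3 to 4151). The count of 6 members became 3, C1qa, C1qb and C1qc, without effector replicate 1 or 2 or naive replicate 1 or 2. Without effector replicate 1 the adjusted p was 0.0889 for Lyz2, 0.0610 for Cd74 and 0.108 for H2-Eb1, and without effector replicate 3 the Cd74 difference was -2.37. H2-Aa was called without effector replicate 3 (adjusted p = 0.0492) or naive replicate 3 (adjusted p = 0.0302). Over the alternatives the adjusted p reached 0.000120 to 0.0889 for Lyz2, 0.00179 to 0.101 for Cd74, 6.05e-06 to 0.118 for H2-Eb1 and 0.0302 to 0.212 for H2-Aa. Apoe was at -0.21 and turned to 0.07 without naive replicate 2.

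Some B cell markers were lower at day 14 than in naive cells, where the class II chains were higher. Of 10 listed, 7 were tested, and at day 14 against naive cells none was higher, 4 were lower and 3 were not called, where 33.6% of all tested genes were higher and 28.5% lower. Cr2, the complement receptor of mature B cells, had 3 counts over the day 14 and 228 over the naive libraries, 94.5-fold lower (95% counting interval 31.9 to 462), and the B cell receptor chain gene Cd79a was lower by 3.93 on the log2 scale (edgeR adjusted p = 4.93e-06). The defining marker Ms4a1 (CD20), like Pax5 below named after its values were seen, had 0, 0 and 3 counts at day 14, 2, 0 and 0 at day 4, 0, 7 and 7 in effector, and 25, 16 and 3 in naive libraries. Cd22, the most abundant of the list in tumours, went the other way with 47, 29 and 172 counts at day 14, 215, 253 and 156 at day 4, 1, 1 and 24 in effector, and 19, 28 and 10 in naive libraries. The list summed to 3.58 to 13.5 CPM at day 14, 14.4 to 23.0 at day 4, 10.1 to 19.0 in effector and 23.3 to 32.6 in naive libraries. Within naive libraries, replicate 3 was lowest in Ms4a1, in the class II chains and in C1qa. It was also lowest in the other listed B cell genes, though Cd79a varied little (2.58, 3.02 and 2.29 CPM in replicates 1 to 3). The exception was Cd79b, which was highest there, at 8.34, 9.86 and 12.2 CPM in naive replicates 1 to 3. Effector replicate 3, the highest of its group in class II, had 25 Pax5 counts, where effector replicates 1 and 2 had 1 and 2. Cd79b, Ms4a1, Blk and Fcer2a were not highest in effector replicate 3, and the other listed genes were. Of these, Cd79a varied little, at 2.66, 2.83 and 2.94 CPM in effector replicates 1 to 3. The part of B cell RNA in the naive and effector values was not tested.

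Most tested dendritic cell markers were higher in tumour than in naive cells, and fewer were against effector cells. Of 12 listed, 8 were tested, and 7 were higher and none lower both at day 14 and at day 4 against naive cells, where 33.6% and 33.4% of all tested genes were higher. Against effector cells 3 were higher at day 14 and 4 at day 4, where 32.6% and 32.7% of all tested genes were. The chemokine gene Ccl22 had 213 counts over the day 14 libraries and 3 over the naive libraries, a ratio of 57.1 (95% counting interval 19.3 to 279), and Batf3 had 25 and 0, at least 6.70-fold higher. Batf3 also had 3, 11 and 43 counts in effector libraries. Zbtb46, the most abundant of the list, had 415, 274 and 277 counts at day 14, 605, 648 and 369 at day 4, 34, 44 and 23 in effector, and 61, 58 and 58 in naive libraries. Zbtb46 was lower at day 14 than at day 4 by 0.84 on the log2 scale (edgeR adjusted p = 0.0411), whereas the class II chains stood higher. Xcr1, named after its values were seen, went the other way, with 165, 205 and 175 counts at day 14 and 59, 104 and 53 at day 4. Its difference of 1.24 was not called (adjusted p = 0.0738). Between day 14 and day 4, 1 of the 8 tested markers was higher and 1 lower at an unadjusted p under 0.05. The list summed to 35.9 to 62.9 CPM at day 14, 41.1 to 70.4 at day 4, 8.04 to 20.4 in effector and 5.50 to 9.96 in naive libraries. In counts the list held 954, 698 and 593 at day 14 and 791, 1173 and 616 at day 4, with Zbtb46 the largest part. Flt3, Clec9a, Cd209a and Siglech, named after their values were seen, were low in tumours. Flt3 had 21, 15 and 4 counts at day 14 and 1, 16 and 16 at day 4. Clec9a had 7, 1 and 4, then 3, 11 and 3. Cd209a had 0, 4 and 6, then 1, 9 and 9, and Siglech 3, 0 and 7, then 0, 5 and 0. Of these, only Flt3 passed the filter. The part of dendritic cell RNA in the class II values was not tested.

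Other cell types gave fewer counts than melanoma cells. Of 8 fibroblast markers 6 were tested, and 5 were higher at day 14 than in naive cells, where 33.6% of all tested genes were. Fn1, the most abundant, was higher by 9.19 on the log2 scale (edgeR adjusted p = 1.09e-05), and Col1a2, at 130 counts against 0, was at least 34.9-fold higher. Fn1 gave 263, 132 and 68.3 CPM at day 14, most of the list sum of 77.6 to 272 CPM. Of 6 endothelial markers only Pecam1 and Vwf were tested; Pecam1, which T cells also carry, was lower by 1.93 and Vwf, with 178 counts over the day 14 and 2 over the naive libraries, stood at a ratio of 71.6 (95% counting interval 19.5 to 596). None of the 8 neutrophil markers passed the filter, and Mpo, the most abundant, had 1, 2 and 3 counts at day 14. Between day 14 and day 4, no macrophage, melanoma or fibroblast marker was called by edgeR in either direction, and at an unadjusted p under 0.05 none, none and 1 were, in that order. Of all tested genes, 12.1% were called there.

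Other genes of the class II pathway were called in both directions. Of 10 listed genes 8 were tested, and at day 14 against naive cells 2 were higher and 3 lower, where 33.6% and 28.5% of all tested genes were. H2-DMb1, a chain of the peptide exchange factor DM, was higher by 2.47 on the log2 scale and Ifi30, the lysosomal thiol reductase GILT, by 2.29 (edgeR adjusted p = 0.00207 and 1.52e-06). H2-Ob, a chain of the DM inhibitor DO, had 64, 21 and 20 counts at day 14, 63, 55 and 79 at day 4, 528, 277 and 700 in effector, and 1279, 769 and 1005 in naive libraries, a fall by 5.14 at day 14 against naive cells (adjusted p = 8.39e-06). H2-DMa, the partner chain of DM, fell by 0.86 (adjusted p = 0.000520). H2-DMb1 and H2-DMb2 are near-identical copies, so their separate counts are uncertain. In these bulk libraries H2-Ob thus moved opposite to H2-Aa and H2-Eb1, with which it shares the box pair printed above.

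Ciita, the class II transactivator, named here for that role and after its values were seen, was low and was not called in any of the 6 comparisons. It had 52, 40 and 46 counts at day 14, 18, 32 and 25 at day 4, 15, 19 and 15 in effector, and 38, 41 and 6 in naive libraries. Day 14 libraries did not overlap with day 4 libraries, with a log2 difference of 0.79 (SE 0.51, edgeR adjusted p = 0.384), and the difference from effector cells was 1.14 (SE 0.53, adjusted p = 0.0720). The 7 genes of RFX, NF-Y and CREB were all tested, and at day 14 against naive cells Nfyb was higher by 0.40 (adjusted p = 0.0242), and Creb1 and Nfyc were lower by 0.63 and 0.24 (adjusted p = 7.66e-05 and 0.0436). None of these 7 was called by edgeR between day 14 and day 4, where 12.1% of all tested genes were, and 1 had an unadjusted p under 0.05. In the list of 10 interferon gamma receptor genes and early targets, 4 were higher and 2 lower at day 14 than in naive cells, near the 33.6% and 28.5% among all tested genes. Irf8 was higher by 5.12 (adjusted p = 3.38e-05), with 1538 to 1939 counts at day 14 and 25 to 74 in naive libraries, and the receptor chain Ifngr1 by 1.90 (adjusted p = 1.14e-09), while its partner Ifngr2 fell by 3.76 and Jak1 by 0.94 (adjusted p = 3.14e-07 and 7.04e-08).

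Other complement genes were called in both directions. Of 13 listed 10 were tested, and at day 14 against naive cells 6 were higher and 3 lower, where 33.6% and 28.5% of all tested genes were. C3ar1, the receptor for C3a, had 61, 25 and 64 counts at day 14, 15, 10 and 108 at day 4, 3, 5 and 1 in effector and 0 in all naive libraries, at least 40.2-fold higher at day 14 than in naive cells. C4b had 659 counts over the day 14 and 2 over the naive libraries, a ratio of 265 (95% counting interval 73.1 to 2193). Cd55 and Cd46, membrane regulators of complement, fell by 3.65 and 1.90 on the log2 scale (edgeR adjusted p = 2.17e-07 and 2.01e-05). C3ar1 was highest in day 4 replicate 3, as were Lyz2, Cd14 and Mrc1, while in naive libraries C1q was present and C3ar1 was at 0.

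Per length of annotated exon, the members ranked differently inside and outside tumours. At day 14 the level per kilobase was highest for Ctss, at 56.8 ± 1.86 CPM per kilobase, and Cd74, at 49.5 ± 6.77, followed by Apoe at 20.7 ± 8.54 (SD, n = 3 each). H2-Ab1 at 11.8 ± 2.46, H2-Aa at 9.08 ± 2.27 and H2-Eb1 at 9.01 ± 2.21 CPM per kilobase came next, with H2-Ab1 above H2-Aa and H2-Eb1 in all 3 libraries, while H2-Aa and H2-Eb1 changed places between libraries. So did Lyz2 at 5.80 ± 3.26, C1qb at 4.66 ± 1.79 and C1qa at 3.71 ± 0.663, and C1qc was lowest at 1.22 ± 0.436. In effector libraries Ctss, at 69.8 ± 9.75 CPM per kilobase, stood far above the next, Apoe at 1.71 ± 0.265, Cd74 at 1.47 ± 0.923 and H2-Ab1 at 1.02 ± 0.735. In naive libraries Ctss, at 61.8 ± 6.27, was followed by Cd74 at 4.90 ± 2.44, while Lyz2 at 2.06 ± 0.681, Apoe at 1.99 ± 0.696 and H2-Ab1 at 1.83 ± 0.987 CPM per kilobase changed places between libraries.

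The genes most like each member over the 12 libraries were found by Pearson's r of log2 CPM, as a description over points that share the group structure and library depth. For the summed C1q chains they were Ptpn12 (r = 0.966), Raly (0.965), Fancc (0.958), Bysl (0.957) and Cers6 (0.956). For Lyz2 they were Raly (0.959), Pdss1 (0.943), Cers6 (0.932), Arcn1 (0.929) and Cisd2 (0.928). For the summed class II chains they were Reep2 (0.943), Akr1e1 (0.942), Cobll1 (0.936), Grasp (0.935) and Vamp5 (0.933), and for Cd74 Haus6 (0.984), Zwilch (0.980), Akr1e1 (0.980), Hspa14 (0.980) and 0610010F05Rik (0.979). Ctss had looser matches, led by Tkfc (0.817), Dpp8 (0.804), Fopnl, Nsmce3 (0.797) and Asb8 (0.796). None of these genes is on the macrophage or class II lists. Only protein-coding genes with a mean log2 CPM of at least 2 were compared. Low genes of those lists, such as Csf1r, Cd14 and Ciita, could therefore not appear, and their absence says nothing about how alike they are.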

How the data were processed

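Each deposited table holds gene counts with an unstranded column and a column per strand. Per the submitters' processing notes, fastp 0.19.6, STAR 2.6.1b and the build GRCm38 were used; how reads were counted, and on which annotation, is not given in the sources used here. Per the labels' protocols, cells were sorted into lysis buffer, cDNA was amplified, and libraries with few coding reads were rejected. The unstranded counts were used, because the strands held near-equal shares (50.1% to 50.2% in one), so antisense reads cannot be told apart. The 4 summary lines per table were left out of library sizes: 20.7% to 30.2% of reads lay outside genes, 5.90% to 7.29% mapped to several places, 4.90% to 5.52% did not map and 3.22% to 3.81% were ambiguous. Of 55401 identifiers, 55141 matched GENCODE M21 (GRCm38), the source of symbols and exon lengths.

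The filter filterByExpr left 16426 genes. All 12 libraries entered 1 quasi-likelihood fit in edgeR 4.0.16 (limma 3.58.1, R 4.3.3) with TMM factors (0.940 to 1.06), robust dispersion and 8 residual degrees of freedom. Benjamini-Hochberg adjusted p-values cover all tested genes of a comparison, and a call needs one under 0.05. The fit was tested on simulated data. No unique molecular identifiers are described, so intervals and floors (3 counts) cover counting error only.

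The members and the 14 gene lists (T cell, macrophage and monocyte, dendritic cell, B cell, neutrophil, melanoma, fibroblast and endothelial markers; class II presentation; class II enhanceosome; endolysosomal proteases; lipid carriage; complement; interferon gamma) were chosen with earlier results of these data known. Named were all members, for each list up to the 2 highest and 2 lowest called genes of the comparison described and its most abundant marker, and the 5 genes most like each member. Replicate numbers were not used as pairs in the main fit: of 18 same-numbered pairs, deviations correlated at -0.09 to 0.10 and 1 exceeded 0.1. The labels do not say whether equal numbers share an animal or day, and these correlations cannot exclude it. Alternatives were RLE factors, total counts, no filter, the 2 groups alone, a replicate block, summed stranded counts, DESeq2 1.42.0 and each library left out.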

Additional observations from a re-analysis of the deposited data

How the results depend on the processing

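Of 417 values under other settings, 396 kept their direction and side of the threshold, or stayed within 1.5 times for a count, and of 720 values with 1 library left out, 668 did. Members called between day 14 and day 4 numbered 0, but 1 with no filter, 1 with DESeq2 and 3 from the 2 groups alone, and 0 to 1 with 1 library left out. All genes called there numbered 1984, 1283 to 2206 with 1 library left out (1283 without day 14 replicate 2) and 801 without both tumour libraries numbered 2, an alternative chosen after seeing the data. Members called between effector and naive cells numbered 6, but 3 from the 2 groups alone and 3 to 7 with 1 library left out. Differences near 0 changed sign: Ctss at day 4 against naive cells, -0.0045, was 0.030 with RLE factors, 0.023 with no filter, 0.030 with DESeq2, 0.067 without both libraries numbered 2, and -0.13 to 0.092 with 1 library left out. Apoe between day 14 and day 4 was 0.012 without both. With 1 library left out, the day 14 minus day 4 difference ran from -0.95 to 1.22 for Lyz2, -0.42 to 0.16 for Apoe, -0.10 to 0.084 for Cd74 and -0.19 to 0.019 for Ctss, that of C1qc at day 4 against naive from -0.35 to 0.79, and that of Apoe in effector against naive from -0.44 to 0.067. With the replicate block, Ctss at day 14 against effector (adjusted p = 0.0596) and Cd74 in effector against naive (0.0604) were no longer called, and no other member's call changed. With total counts as scaling, the median of all genes moved to 0.12 and 0.14 (log2) at day 14 and day 4 against effector cells. The cause was not tested in any of these. Counts below about 10 limit what can be told apart, as in naive replicate 3, with 1 C1qa, 6 C1qb and 8 C1qc counts.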
